A study of Mus musculus with 8 samples.

Results

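A set of 10 genes of blood vessel growth was followed in infarcts of aged mice: the vascular endothelial growth factor ligands *Vegfa* and *Vegfb*, the receptors *Kdr*, *Flt1* and *Nrp1*, the angiopoietins *Angpt1* and *Angpt2* with their receptor *Tek*, and the vasohibins *Vash1* and *Vash2*. They were chosen by name, as 10 of the 46078 Ensembl genes in the count tables, and all 10 were found and passed the filter on low counts. The 8 libraries, numbered as replicates 1 to 4 of each group and called animals here, came from wild-type male mice of the inbred strain C57BL/6J aged 18 months. All had a stroke made by closing the distal middle cerebral artery and then lowering the oxygen in the air (DH stroke), and infarcts were cut out by hand at 7 weeks after it. From 1 week after stroke, mice of the 4 vehicle libraries received sterile PBS and those of the other 4 received 4 g/kg of HPβCD (2-hydroxypropyl-β-cyclodextrin, a sugar ring that takes up cholesterol), injected under the skin 3 times per week for 6 weeks.

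VEGF-A is the main signal that makes endothelial cells divide, migrate and sprout, and it is made under low oxygen by many cell types of injured brain. It acts through the tyrosine kinase receptor encoded by *Kdr*, while the protein of *Flt1* binds VEGF-A tightly but signals weakly and limits what reaches the other receptor, and neuropilin 1 (*Nrp1*) is a coreceptor shared with semaphorins. Angiopoietin 1 from perivascular cells activates TIE2 (*Tek*) and stabilizes vessels, angiopoietin 2 can oppose it where vessels are remodelled, and vasohibins are enzymes that remove the last tyrosine of α-tubulin, of which *Vash1* is known as an inhibitor and *Vash2* as a promoter of vessel growth.

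Of the 10 genes, *Angpt2* was the only one called, and it was higher in HPβCD infarcts, by 2.51-fold. Called means an adjusted p under 0.05, from the quasi-likelihood test of edgeR and the Benjamini-Hochberg method over all 14736 tested genes. Of all tested genes 1.95% were called, 1.17% higher and 0.774% lower, so the 1 call among 10 genes describes *Angpt2* and not the group. Log2 fold changes were above 0 for 8 genes and below 0 for *Vegfa* and *Vash1*. Their median was 0.44, against -0.05 over all tested genes. Levels are given in CPM, the count scaled to a fixed library total after TMM normalization between libraries. The CPM ranges of the groups did not overlap for *Angpt2*, *Nrp1* and *Vash2*, that is 3 of 10, and over all tested genes they did not overlap in 16.8%, with HPβCD higher in 8.77% and lower in 8.01%. Other counts also have to be read against all genes: 5 members had an unadjusted p under 0.05 (27.8% of all tested genes did), DESeq2 called 4 (17.8%) and limma-voom called 5 (22.1%), all higher.

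Libraries held between 16616909 and 32933164 gene counts. Libraries differed in the levels of markers of other cell types. The 9 neuron markers summed to 6018 and 951 CPM for vehicle animals 3 and 1, and to between 7.83 and 81.9 CPM in the other 6 libraries. The 8 astrocyte markers summed to between 2313 and 9863 CPM in vehicle and between 707 and 2696 CPM in HPβCD infarcts. For the 6 oligodendrocyte markers the sums were between 1514 and 4865 CPM and between 158 and 1926 CPM. The 6 fibroblast markers summed to between 2343 and 6012 CPM in vehicle and between 8638 and 9250 CPM in HPβCD infarcts, and the 6 macrophage markers to between 9802 and 21563 CPM and between 26407 and 32625 CPM, so that neither pair of ranges overlapped. The macrophage sum was mostly *Lyz2* and *Gpnmb* (means of 13685 and 7462 CPM). These and *Cd68* did not overlap between the groups, whereas *Csf1r*, *Trem2* and *Aif1* did. The part of these differences in the results was not tested, and fold changes of the members are also given without vehicle animals 1 and 3. In that fit the median log2 fold change of the neuron markers was -0.058. Those of astrocyte, oligodendrocyte, fibroblast and macrophage markers were -1.02, -1.69, 0.52 and 0.61, so differences in these markers remained. In bulk tissue, fewer cells of a type and less RNA per cell cannot be told apart.

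**Figure D1:**
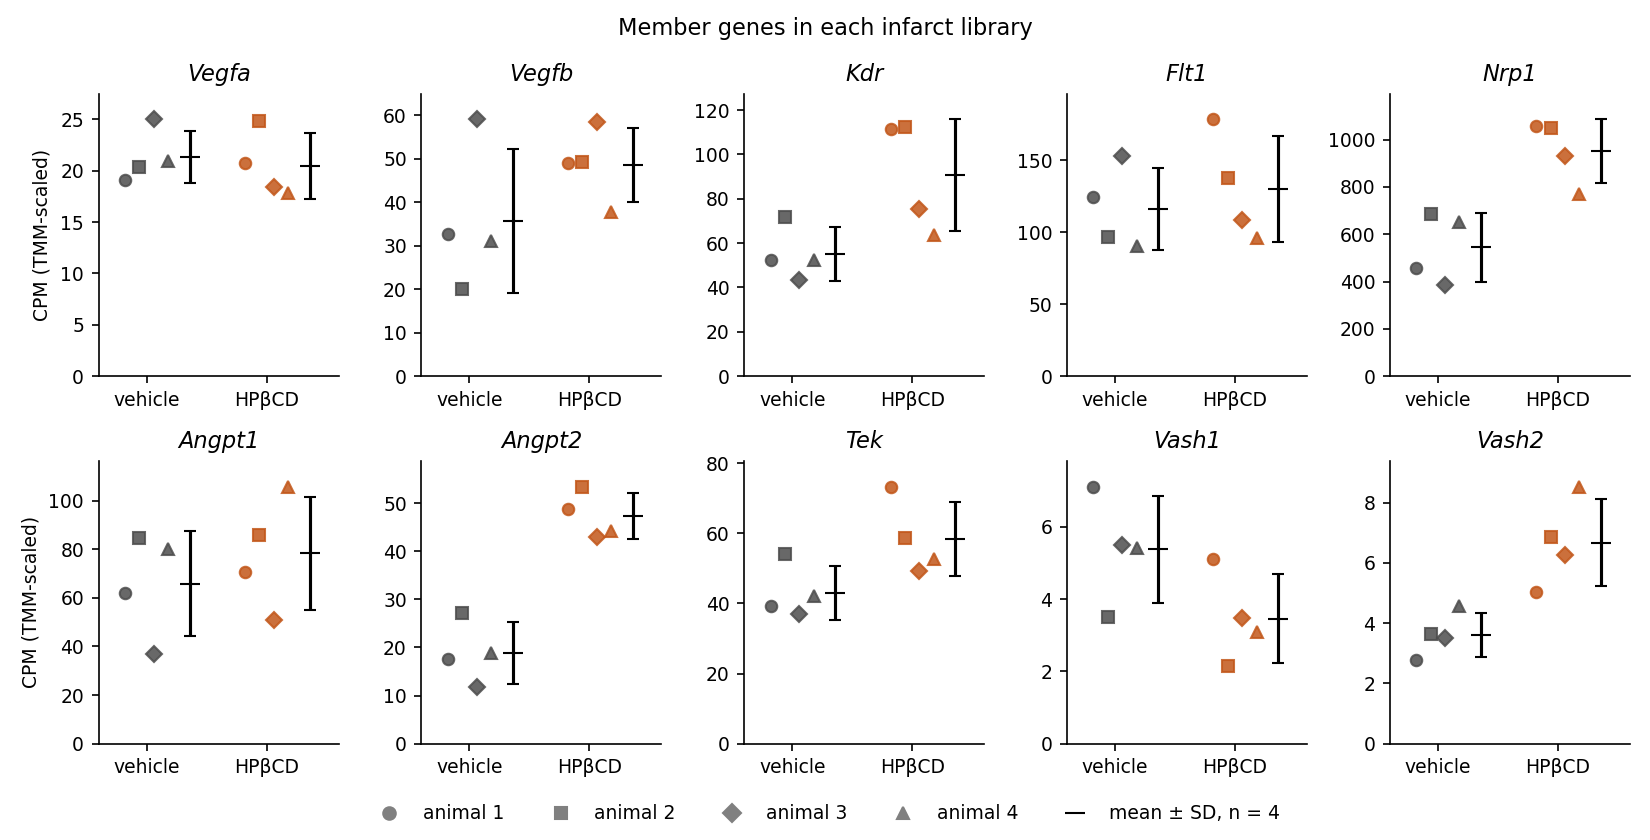
Expression of the 10 genes in each library, in CPM on axes that start at 0, with vehicle in gray and HPβCD in orange, marker shape for the animal number and the mean ± SD (n = 4) beside the points. The 4 HPβCD points lie above all 4 vehicle points for *Nrp1*, *Angpt2* and *Vash2*.

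The promoters of the members were read for the letters bound by the hypoxia-inducible factors, which switch on *Vegfa* and other vessel genes under low oxygen. RefSeq windows on GRCm38.p6, from 250 bases before to 50 bases after an annotated start, were found for 8 of the 10 genes (10 windows) and not for *Angpt1* and *Angpt2*. The factor's core was searched as ACGTG and as GCGTG on both strands. Over 32851 windows of this length 19.6% held ACGTG and 32.4% held GCGTG, and of the 10 windows of members 1 and 6 did. The 3 windows printed here, 5′ to 3′, belong to *Kdr*, *Nrp1* and *Vash2*, the members with the smallest p-values that have one. Another *Vash2* window, which held neither core, is not printed. The capitals mark GCGTG or its reverse complement.
Kdr, chr5:75978406-75978705, minus strand: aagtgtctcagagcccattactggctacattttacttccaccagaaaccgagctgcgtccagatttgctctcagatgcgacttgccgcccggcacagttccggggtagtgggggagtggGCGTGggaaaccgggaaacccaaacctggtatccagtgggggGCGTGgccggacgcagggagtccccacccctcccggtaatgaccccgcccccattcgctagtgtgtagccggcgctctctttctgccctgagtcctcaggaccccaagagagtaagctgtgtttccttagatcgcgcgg
Nrp1, chr8:128358823-128359122, plus strand: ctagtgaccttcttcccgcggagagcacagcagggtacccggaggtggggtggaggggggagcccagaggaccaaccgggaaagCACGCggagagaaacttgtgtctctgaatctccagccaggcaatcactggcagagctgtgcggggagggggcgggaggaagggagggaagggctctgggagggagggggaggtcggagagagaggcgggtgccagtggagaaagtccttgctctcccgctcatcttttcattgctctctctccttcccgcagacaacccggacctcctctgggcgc
Vash2, chr1:190979247-190979546, minus strand: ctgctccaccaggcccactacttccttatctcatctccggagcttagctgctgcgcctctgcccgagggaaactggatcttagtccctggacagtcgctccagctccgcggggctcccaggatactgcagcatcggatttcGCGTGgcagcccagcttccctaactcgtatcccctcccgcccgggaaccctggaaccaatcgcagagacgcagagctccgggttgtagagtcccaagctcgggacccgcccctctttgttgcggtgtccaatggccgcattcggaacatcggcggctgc

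*Kdr* held GCGTG at 2 places, *Nrp1* at 1 place and the printed window of *Vash2* at 1 place. The other *Vash2* window held neither core, nor did the windows of *Tek* and *Vash1* and the *Vegfa* window at the 5′ end of the gene, which makes 4 of the 10. The other *Vegfa* window (46025114 to 46025413) lies inside the gene, away from that end, and held both cores. No other member window held ACGTG. A match is a run of letters and not a measured binding site.

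*Angpt2* (ENSMUSG00000031465, GRCm38 chromosome 8, 18690263 to 18741562, minus strand) encodes the angiopoietin stored in endothelial granules. In order of animal number, its level was 17.6, 27.2, 11.7 and 18.8 CPM with vehicle and 48.8, 53.4, 43.1 and 44.1 CPM with HPβCD. The lowest HPβCD animal was above the highest vehicle animal, and the HPβCD values lay closer together than the vehicle values. The mean went from 18.8 ± 6.40 to 47.4 ± 4.76 CPM (SD, n = 4 each), and edgeR gave 1.33 as the log2 fold change (SE 0.24, adjusted p = 0.0483). DESeq2 and limma-voom gave adjusted p-values of 7.8e-05 and 0.00444. The call is close to the threshold and was lost, with edgeR adjusted p-values from 0.0513 to 0.175, when any HPβCD animal, vehicle animal 1 or vehicle animal 4 was left out, and at 0.0583 with scaling by library totals only. Without vehicle animals 1 and 3 the log2 fold change was 1.05 (edgeR adjusted p = 0.0395). The gene lies inside *Mcph1* on the opposite strand without sharing exon bases, and *Mcph1* had between 193 and 456 counts per library against 194 to 951 for *Angpt2*.

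*Angpt1* (chromosome 15, 42424723 to 42676977), the angiopoietin that activates TIE2, was at 61.8, 84.5, 37.0 and 80.0 CPM in vehicle and at 70.6, 85.8, 51.0 and 105.7 CPM in HPβCD animals. The groups overlapped widely, and the lowest value of each group was that of animal 3. Its log2 fold change was 0.25 (SE 0.30, adjusted p = 0.629 in edgeR), and -0.06 without vehicle animals 1 and 3. Of its exon bases, 14.2% lie opposite the antisense gene *Gm17473*, which had between 17 and 73 counts per library.

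The ratio of *Angpt2* to *Angpt1* within each library hardly depends on scaling between libraries. Per kilobase of exon it was 0.402, 0.456, 0.450 and 0.333 in vehicle and 0.975, 0.879, 1.19 and 0.590 in HPβCD animals. In vehicle infarcts *Angpt2* was thus below *Angpt1* in all 4 animals, and in HPβCD infarcts it was nearer to it. In HPβCD animal 3 *Angpt2* was above *Angpt1* with this length and per kilobase of the longest transcript (12.09 against 11.98 CPM per kilobase). Per kilobase of coding sequence, a length chosen after the data were seen, the ratio in that animal was 0.847 and no animal was above 1. The mean log2 ratio differed by 1.11, from -1.79 ± 0.21 to -0.68 ± 0.43 on the CPM scale (SD, n = 4 each; two-sided exact permutation p = 0.0286, the smallest this design allows). Over the 11 ratios examined the adjusted p was 0.157 by the Benjamini-Hochberg method. Without vehicle animals 1 and 3 the difference was 1.18, at the smallest p that design allows (0.0667, exact test).

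*Tek* (chromosome 4, 94739289 to 94874976), the TIE2 receptor of endothelial cells, was at 39.1, 54.0, 36.8 and 42.1 CPM in vehicle and at 73.3, 58.6, 49.1 and 52.6 CPM in HPβCD animals. Vehicle animal 2 lay above HPβCD animals 3 and 4. The log2 fold change was 0.44 (SE 0.18, adjusted p = 0.153 in edgeR), and neither DESeq2 nor limma-voom called it (adjusted p = 0.1403 and 0.0515). It was 0.29 without vehicle animals 1 and 3. *Angpt1* relative to *Tek* differed by -0.17 on the log2 scale (two-sided exact permutation p = 0.600), by -0.39 without vehicle animals 1 and 3, and by -0.37 to -0.020 with 1 animal left out.

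*Vegfa* (chromosome 17, 46016993 to 46032369), the central ligand of the group, was at 19.1, 20.4, 25.0 and 20.9 CPM in vehicle and at 20.7, 24.8, 18.4 and 17.8 CPM in HPβCD animals. It had the narrowest spread of the members in the vehicle group, with the highest animal at 1.31 times the lowest, and the groups lay over each other. The log2 fold change was -0.06 (SE 0.16, adjusted p = 0.833 in edgeR), and an interval of 2 SE around it runs from -0.38 to 0.25. It was -0.0011 without vehicle animals 1 and 3. The sign of this small value turned under limma-voom (0.08) and without vehicle animal 3 or HPβCD animal 4.

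*Vegfb* (chromosome 19, 6982473 to 6987651) encodes a ligand that binds the *Flt1* receptor but not that of *Kdr*. It had the widest vehicle range of the members for its level, at 32.7, 20.05, 59.1 and 31.1 CPM, and was at 49.1, 49.3, 58.4 and 37.7 CPM in HPβCD infarcts. The highest value of all was that of vehicle animal 3, the library with the highest neuron markers. The log2 fold change was 0.45 (SE 0.31, adjusted p = 0.382 in edgeR) with all animals. It was 0.80 without vehicle animal 3 and 0.95 without vehicle animals 1 and 3 (edgeR adjusted p = 0.0608 and 0.0828), and limma-voom, which gives less weight to libraries that vary more, called it (adjusted p = 0.0195).

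*Kdr* (chromosome 5, 75932827 to 75978458), the main signalling receptor, was at 52.5, 71.9, 43.3 and 52.2 CPM in vehicle and at 111.7, 112.6, 75.2 and 63.5 CPM in HPβCD animals. HPβCD animal 4 lay below vehicle animal 2, and the other 3 HPβCD animals lay above every vehicle animal. Its log2 fold change was 0.72 (SE 0.23, adjusted p = 0.0974 in edgeR), and it was called by DESeq2 (adjusted p = 0.0408) and by limma-voom (adjusted p = 0.0163). It was 0.56 without vehicle animals 1 and 3 (edgeR adjusted p = 0.252).

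*Flt1* (chromosome 5, 147561604 to 147726011), the decoy receptor, was at 124.2, 96.6, 153.1 and 90.5 CPM in vehicle and at 178.4, 137.8, 108.7 and 95.6 CPM in HPβCD animals. Only HPβCD animal 1 was above the highest vehicle animal, which was animal 3. The log2 fold change was 0.16 (SE 0.24, adjusted p = 0.703 in edgeR), and 0.49 without vehicle animals 1 and 3. The *Flt1* to *Kdr* ratio per kilobase was 1.58, 0.898, 2.36 and 1.16 in vehicle and 1.07, 0.819, 0.967 and 1.01 in HPβCD animals, wide in the first group and narrow in the second. Per kilobase of coding sequence the ratio was above 1 in every animal, from 1.35 to 3.56 in vehicle and from 1.24 to 1.61 in HPβCD animals. Its log2 difference of -0.55 did not pass (two-sided exact permutation p = 0.143), was -0.76 without vehicle animal 2 (p = 0.0286 by the same exact test), and was -0.09 without vehicle animals 1 and 3.

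*Nrp1* (chromosome 8, 128358604 to 128503363) had the highest level of the members on either scale. Its level was 457.2, 683.8, 385.7 and 652.1 CPM in vehicle and 1058, 1049.6, 928.5 and 771.1 CPM in HPβCD animals. Every HPβCD animal lay above every vehicle animal. The group means were 544.7 ± 145.8 CPM and 951.8 ± 134.2 CPM (SD, n = 4), and edgeR did not call it (log2 fold change 0.81, SE 0.22, adjusted p = 0.0785), whereas DESeq2 and limma-voom did (adjusted p = 0.00922 and 0.0140). Without vehicle animals 1 and 3, whose neuron markers were high and whose *Nrp1* was lowest, the log2 fold change was 0.53. The authors had reported *Nrp1*, *Vash2*, *Vegfc* and *Vegfd* as upregulated in these samples, so the direction of these genes is not independent evidence. Their figure used thresholds on both adjusted p and fold change, whereas calls here used adjusted p only. The folds of *Nrp1* and *Vash2* were 1.75 and 1.84 in edgeR.

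The ligand was also set against its receptors. The *Vegfa* to *Kdr* ratio per kilobase was 0.770, 0.599, 1.22 and 0.847 in vehicle and 0.392, 0.466, 0.518 and 0.593 in HPβCD animals, and the highest HPβCD value was just below the lowest vehicle value. Per kilobase of coding sequence the ratio was 1.25, 0.975, 1.98 and 1.38 in vehicle and from 0.638 to 0.965 in HPβCD animals. The log2 ratio differed by -0.77 (two-sided exact permutation p = 0.0286, adjusted p = 0.157 over the 11 ratios), and by -0.55 without vehicle animals 1 and 3, where the design allows no p below 0.0667 (p = 0.133 by the exact test). *Vegfa* to *Flt1* and *Nrp1* to *Kdr* differed by -0.22 and 0.13 on the log2 scale, at exact permutation p-values of 0.343 and 0.400. These differences were -0.46 and -0.021 without vehicle animals 1 and 3, and without HPβCD animal 1 *Vegfa* to *Flt1* differed by -0.069.

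Endothelial cells carry *Kdr*, *Flt1* and *Tek*, so these receptors and *Nrp1*, which other cells also carry, were set against endothelial markers of the same library. All 10 endothelial markers had log2 fold changes above 0, from 0.23 for *Cldn5* to 1.00 for *Eng*, with a median of 0.55. None of them was called by edgeR, while 4 lay at an unadjusted p and 3 at a DESeq2 adjusted p under 0.05 (27.8% and 17.8% of all tested genes). Summed, they ranged from 467 to 694 CPM in vehicle and from 644 to 1072 CPM in HPβCD infarcts, with only vehicle animal 2 and HPβCD animal 4 overlapping. *Kdr*, *Nrp1*, *Tek* and *Flt1* relative to the mean of these markers differed by 0.15, 0.28, -0.11 and -0.39 on the log2 scale, and the groups overlapped for each (two-sided exact permutation p = 0.286, 0.200, 0.229 and 0.200, n = 4 per group). Without vehicle animals 1 and 3 these differences were 0.073, 0.052, -0.17 and -0.013. A difference of the receptors from endothelial markers was thus not detected with 4 animals per group. For *Tek* the groups overlapped only through HPβCD animal 4, at a log2 ratio of 0.545. HPβCD animals 1 to 3 were at 0.229, 0.228 and 0.236, against 0.340 to 0.514 in vehicle animals.

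**Figure D2:**
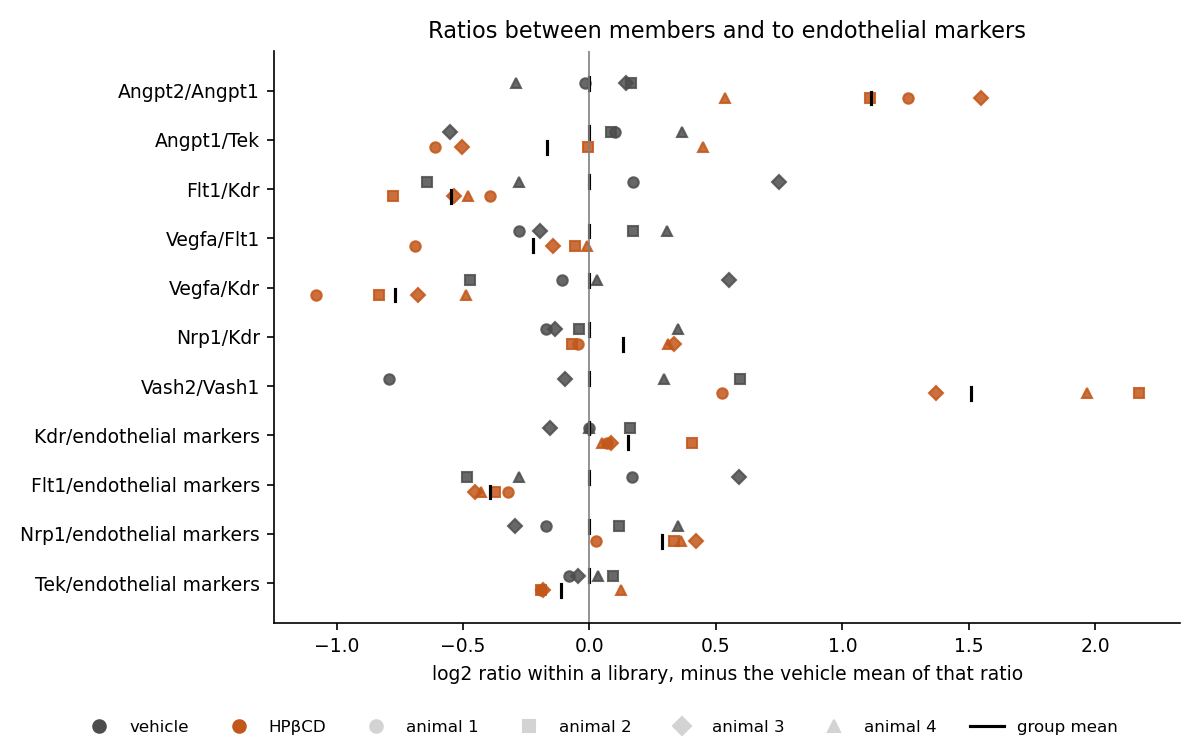
Log2 ratios between pairs of members, and between receptors and the mean of 10 endothelial markers, for each library, minus the vehicle mean of the ratio; points are animals and black bars are group means (n = 4). For *Angpt2* to *Angpt1* and *Vegfa* to *Kdr* the groups do not overlap, with mean differences of 1.11 and -0.77. For the endothelial ratios the groups overlap, for *Tek* only through HPβCD animal 4.

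The vasohibins had low counts, from 35 to 126 for *Vash1* and from 49 to 154 for *Vash2* per library, so that single values carry more counting error than those of the other members. *Vash1* (chromosome 12, 86678700 to 86692091), the inhibitor made by endothelial cells, was at 7.11, 3.49, 5.496 and 5.42 CPM in vehicle and at 5.10, 2.14, 3.48 and 3.10 CPM in HPβCD animals. Vehicle animal 2 was low and HPβCD animal 1 high for their groups, which therefore overlapped. The log2 fold change was -0.63 (SE 0.32, adjusted p = 0.229 in edgeR), and no fit that was run called it. It was -0.34 without vehicle animals 1 and 3.

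*Vash2* (chromosome 1, 190947646 to 190979296) was at 2.77, 3.64, 3.50 and 4.56 CPM in vehicle and at 5.05, 6.85, 6.26 and 8.53 CPM in HPβCD animals, without overlap. Its log2 fold change was 0.88 (SE 0.24, adjusted p = 0.0724 in edgeR), and DESeq2 and limma-voom called it (adjusted p = 0.0108 and 0.0423). Leaving out vehicle animals 1 and 3 gave 0.72 (edgeR adjusted p = 0.168). Per kilobase of exon, *Vash2* was below *Vash1* in all 4 vehicle animals, at ratios of 0.239, 0.626, 0.388 and 0.509. In HPβCD animals the ratios were 0.596, 1.87, 1.07 and 1.62, above 1 in animals 2 to 4, while animal 1 lay inside the vehicle range. Per kilobase of coding sequence *Vash2* was above *Vash1* in vehicle animal 2, at 1.098, and in all 4 HPβCD animals. The log2 ratio differed by 1.51 (two-sided exact permutation p = 0.0571; adjusted p = 0.210 over the 11 ratios), and by 1.24 to 1.84 with 1 animal left out (exact p from 0.0286 to 0.0857). The difference was 1.06 without vehicle animals 1 and 3 (p = 0.200 by the same exact test). The partner *Svbp*, which vasohibins need to work, and the ligase *Ttl*, which puts the tyrosine back, had log2 fold changes of -0.11 and -0.73 (edgeR adjusted p = 0.903 and 0.236).

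**Figure D3:**
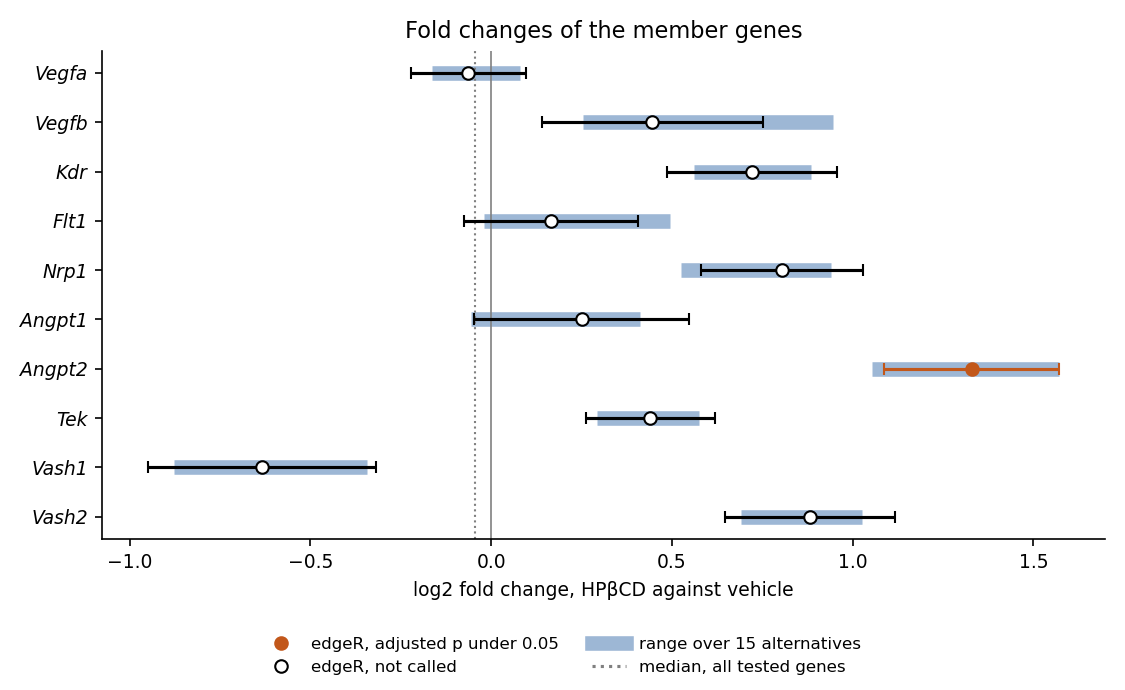
Log2 fold changes of the 10 genes, HPβCD against vehicle, with bars of 1 SE (edgeR, 4 animals per group), blue bars for the range over 15 alternative fits, and the median of all tested genes as a dotted line at -0.05. *Angpt2*, filled, is the gene called at an adjusted p under 0.05, and the blue bars of *Vegfa*, *Flt1* and *Angpt1* cross 0.

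Levels of different genes were compared as RPKM, the CPM per kilobase of exon. In vehicle infarcts the order of the means was *Nrp1* (55.7), *Vegfb* (22.3), *Angpt1* (12.6), *Tek* (9.13), *Flt1* (8.60), *Kdr* (6.09), *Angpt2* (5.10), *Vegfa* (4.98), *Vash1* (2.07) and *Vash2* (0.838). From *Vegfb* down to *Vegfa*, neighbours in this order overlapped in their ranges over 4 animals and cannot be ordered with confidence, while *Nrp1* stood above and the vasohibins stood below. In HPβCD infarcts *Angpt2* (12.8) came after *Nrp1* (97.3), *Vegfb* (30.3) and *Angpt1* (15.05), ahead of *Tek* (12.4), *Kdr* (10.05) and *Flt1* (9.64), although all from *Angpt1* to *Flt1* overlapped with their neighbours. *Vegfa* (4.77) was below *Flt1* without overlap, and *Vash2* (1.55) and *Vash1* (1.33) overlapped. With coding length in place of all exons 4 members took another rank in each group, so the order depends on the gene model. In vehicle infarcts *Vegfa* moved from rank 8 to 5 and *Tek* from 4 to 7. In HPβCD infarcts *Flt1* moved from rank 7 to 4 and *Tek* from 5 to 8. *Nrp1*, *Vegfb* and *Angpt1* kept ranks 1, 2 and 3 in both groups.

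**Figure D4:**
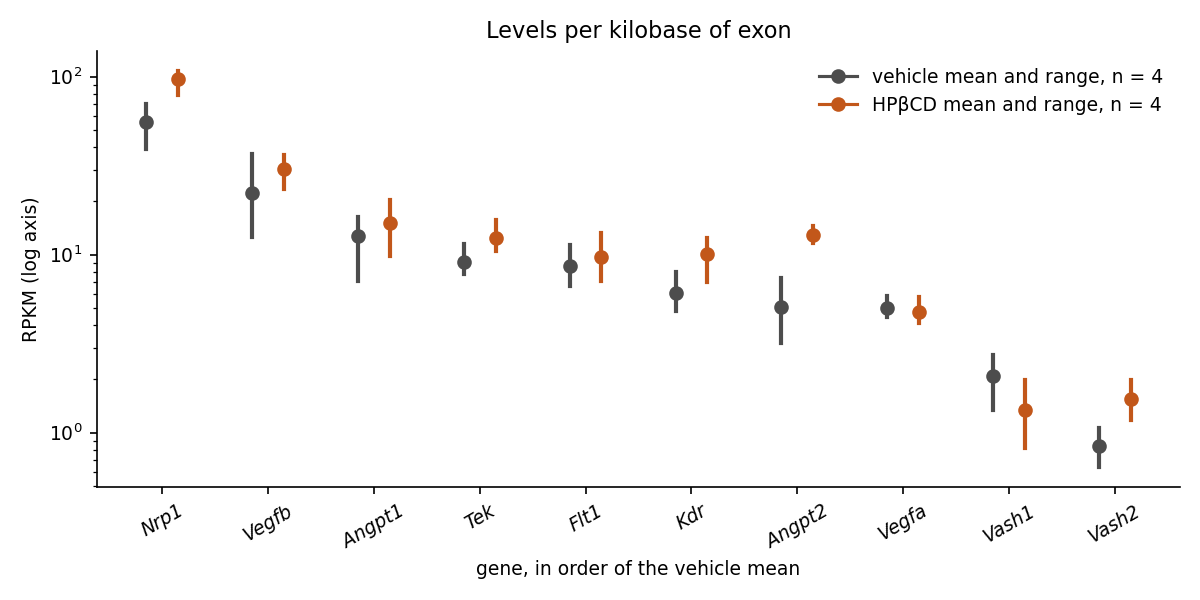
RPKM of the 10 genes on a log axis, in the order of the vehicle means, with the mean as a point and the range over 4 animals as a line for vehicle (gray) and HPβCD (orange). *Nrp1* is the highest in both groups, at 55.7 and 97.3, and *Angpt2* goes from 5.10 to 12.8.

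The 18 genes of hypoxia sensing and response, which include *Hif1a* and *Epas1* for the factors themselves, gave 0 calls among 17 tested by edgeR. Their median difference was 0.0044 on the log2 scale. An unadjusted p under 0.05 was reached by 4 (27.8% of all tested genes), and a DESeq2 adjusted p under 0.05 by 2 (17.8%). *Epas1* went from 545.8 ± 83.4 to 755.4 ± 63.0 CPM, without overlap of the groups (log2 fold change 0.47, SE 0.16, adjusted p = 0.112 in edgeR), and *Hif1a* from 242.7 ± 72.6 to 243.4 ± 27.1 CPM (log2 fold change 0.0044, adjusted p = 0.992 in edgeR). The sign of the median turned with scaling by library totals only (-0.08).

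Other genes of the same pathways gave 8 calls, all higher, among 89 tested of 91 in 9 lists, with a median log2 fold change of 0.27, where 1.17% of all tested genes were called higher. These lists were chosen with earlier results of these data known, so the counts are a description and not independent evidence. DESeq2 called 23 of the 89, or 25.8%, against 17.8% of all tested genes. With vehicle animals 1 and 3 left out, edgeR called 3 of the 89, *Vegfc*, *Flt4* and *Plxna1*, and 202 of all 15066 genes tested in that fit. Among the other VEGF family genes, 3 of 5 were called by edgeR and 5 by DESeq2. *Pgf*, for placental growth factor, a ligand of *Flt1*, rose from 9.88, 14.1, 9.30 and 10.5 CPM in vehicle to 24.0, 27.3, 20.8 and 17.6 CPM in HPβCD animals (log2 fold change 1.03, SE 0.20, adjusted p = 0.0483 in edgeR). *Flt4*, the VEGF-C receptor, rose from 13.9 ± 1.76 to 35.8 ± 5.66 CPM (SD, n = 4; log2 fold change 1.36, SE 0.17, adjusted p = 0.0339 in edgeR), and its ligand *Vegfc* had a log2 fold change of 1.25. *Nrp2* and *Vegfd* were not called by edgeR (adjusted p = 0.0694 and 0.0883) but were by DESeq2 (adjusted p = 0.00749 and 0.0142). All 5 genes had groups without overlap and with HPβCD higher, as had 8.77% of all tested genes.

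Among 4 other genes of the angiopoietin receptors none was called by edgeR. An unadjusted p under 0.05 was reached by 2 and a DESeq2 adjusted p under 0.05 by 1 (27.8% and 17.8% of all tested genes). The orphan receptor *Tie1* was at 41.9, 39.7, 31.8 and 40.9 CPM in vehicle and at 113.3, 78.6, 79.1 and 46.5 CPM in HPβCD animals, spread wide in the second group (log2 fold change 1.04, SE 0.25, adjusted p = 0.0624 in edgeR). *Ptprb*, the phosphatase that restrains TIE2, had a log2 fold change of 0.48 (edgeR adjusted p = 0.119). Of 14 tested genes of tip and stalk cells, the leading and following cells of a sprout, edgeR called 2, both higher. DESeq2 called 3 higher and 1, *Apln*, lower. Over all tested genes edgeR called 1.95% and DESeq2 17.8%. The Notch ligand *Dll4*, which VEGF-A induces in tip cells, rose from 5.25 ± 0.455 to 10.1 ± 1.49 CPM and the Notch target *Hes1* from 18.6 ± 4.96 to 36.9 ± 4.20 CPM (SD, n = 4 each, adjusted p = 0.0483 and 0.0499 in edgeR). *Apln*, another tip cell gene, reached 7.90 and 21.4 CPM with vehicle in animals 1 and 3, and 3.22 CPM or less in the other 6 animals (log2 fold change -2.06, adjusted p = 0.0948 in edgeR).

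Intracellular genes of VEGF receptor signalling gave 0 calls among 20 by edgeR, with a median log2 fold change of 0.12. There were 9 at an unadjusted p and 2 at a DESeq2 adjusted p under 0.05, against 27.8% and 17.8% of all tested genes. Among the 20 genes, *Cdc42* and *Rac1*, small GTPases of cell shape and migration with some of the highest expression, had log2 fold changes of 0.06 and 0.27 (edgeR adjusted p = 0.907 and 0.252). Among 8 endothelial transcription factors, 7 had log2 fold changes above 0 and none was called, with *Ets1*, *Foxo1* and *Klf2* at -0.22, 0.16 and 0.34. Of these factors 2 were at an unadjusted p and 2 at a DESeq2 adjusted p under 0.05 (27.8% and 17.8% of all tested genes). Among 7 other inhibitors of vessel growth, 2 were called higher by edgeR and 5 by DESeq2. Of all tested genes edgeR called 1.17% higher, and DESeq2 called 17.8% in either direction. *Serpinf1*, for pigment epithelium-derived factor, rose from 138.3 ± 28.7 to 326.2 ± 70.7 CPM and *Col18a1*, the source of endostatin, from 105.9 ± 32.9 to 239.8 ± 43.8 CPM (SD, n = 4 each, adjusted p = 0.0483 and 0.0499 in edgeR). *Timp3* and *Thbs2* had log2 fold changes of 0.43 and 1.14 (edgeR adjusted p = 0.246 and 0.0545). Without vehicle animals 1 and 3 the median of the 7 inhibitors was 0.48 in place of 0.91. In that fit edgeR no longer called *Pgf*, *Dll4*, *Hes1*, *Serpinf1* or *Col18a1*, whose log2 fold changes were 0.88, 0.86, 0.73, 1.03 and 0.87 (adjusted p from 0.0572 to 0.0836).

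**Figure D5:**
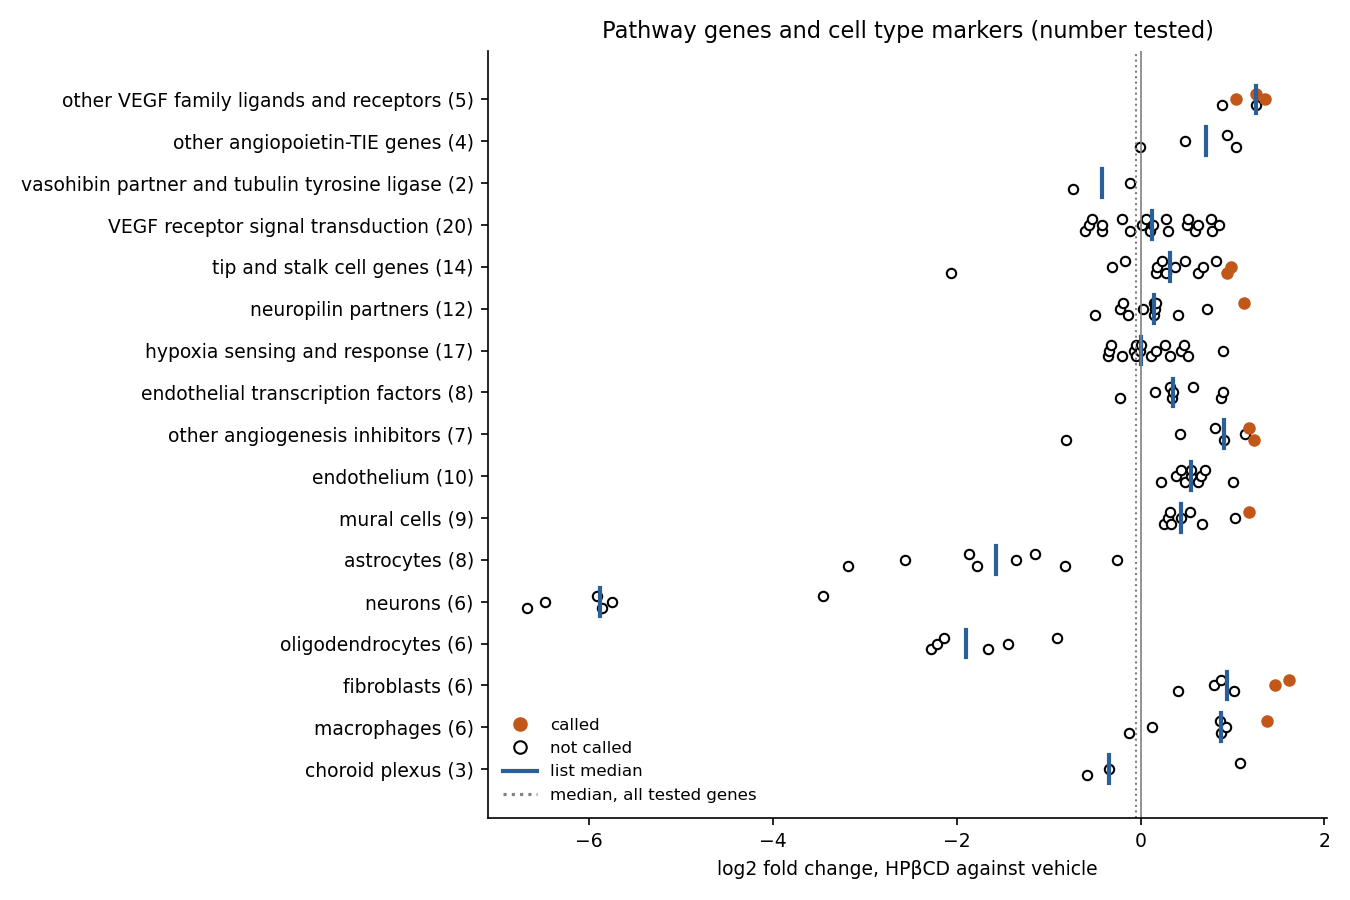
Log2 fold changes, HPβCD against vehicle, of each tested gene in the pathway and marker lists, with called genes filled, list medians as blue bars and the median of all tested genes as a dotted line at -0.05. The other VEGF family genes have a median of 1.25, hypoxia genes lie around 0, and astrocyte, neuron and oligodendrocyte markers lie on the negative side.

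Genes with the profile most like that of a member were found by the mean absolute difference of centred log2 CPM over the 8 libraries, among 13976 genes. For *Angpt2* these were the collagen genes *Col6a3*, *Col1a2* and *Col12a1* (differences of 0.125 to 0.139). *Col1a2*, also a fibroblast marker here, was called (log2 fold change 1.46, adjusted p = 0.0462 in edgeR), and fibroblast marker sums did not overlap between the groups, as given above. For *Kdr* the nearest were *Podn*, *1500015O10Rik* and *Pkdcc* (0.0558 to 0.0907), for *Nrp1* they were *Rftn1*, *Fndc3b* and *Pyroxd2* (0.0574 to 0.0724), for *Flt1* they were *Arhgef15*, *Wdr59* and *Rrn3*, and for *Tek* they were *Arhgef5*, *Surf4* and *Srpr*. *Vegfa* was nearest to *Rnf41*, *Ccdc9* and *Pdss2*, *Vegfb* to *Mfsd13a*, *Igsf8* and *Akt1s1*, and *Angpt1* to *Fndc3a*, *Wls* and *Lyplal1*. The nearest profiles to *Vash1* (*Nckap5*, *Zik1* and *Mtx3*) and to *Vash2* (*Acpp*, *Fabp4* and *Gstt1*) lay at 0.126 to 0.176. The libraries also differed in the cell type markers given above, so likeness of profiles is a description.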

How the data were processed

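Messenger RNA of 8 infarcts was measured by bulk RNA sequencing of stranded, polyadenylated libraries as paired-end reads. The authors trimmed reads with Trimmomatic 0.32, aligned them to GRCm38 with STAR 2.5.2b and counted them with htseq-count, and the values they deposited are raw counts per gene. The strand option and annotation release are not given in the sources used here. Lines for reads assigned to no gene (26.6% to 36.6% of counted reads) were left out. Groups and animal numbers came from the labels, which give no batch. The labels number replicates without saying that each is 1 animal; they are called animals here, and if they are not, p-values measure only the spread between these samples. No 2 libraries agreed within counting error (chi-square over degrees of freedom at least 19.4).

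Symbols matched 45143 of 46078 identifiers. Coordinates and exon lengths are those of GENCODE M21 on GRCm38, and promoter windows those of RefSeq. Counts were tested with edgeR 4.0.16 in R 4.3.3 (robust quasi-likelihood F test, TMM, filterByExpr, no covariate), and p-values were adjusted by Benjamini-Hochberg over 14736 genes with a threshold of 0.05. The SE of a fold change is its size over the square root of F. CPM used TMM-scaled totals, log2 CPM a prior count of 2, and RPKM the union of exons. Alternatives were DESeq2 1.42.0, which the authors used, limma 3.58.1 (voom), other scaling, testing every gene, a block for animal number and leaving animals out. Coding length for ratios, and list genes without vehicle animals 1 and 3, were added after seeing the data. Ratios were compared by exact permutation tests over 70 assignments, whose smallest p is 0.0286.

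The 10 genes and the lists were chosen with earlier results of these data known. Named genes are the members, for each member the 3 nearest profiles among genes of at least 1 CPM, and, from each list, genes called and examples from the 3 with the highest expression (not every one is reported here), while other genes named were chosen after their values were seen. The procedure was tested on simulated data.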

Additional observations from a re-analysis of the deposited data

Results flagged for a closer look

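Each member and ratio was searched, in each group of 4, for an animal far from the other 3 by Dixon's criterion, which chance meets in about 1 of 20 groups. Of 42 groups 2 held such an animal, where chance gives about 2.1. HPβCD animal 2 had the highest log2 ratio of *Kdr* to endothelial markers in its group, at 1.17 against 0.82 to 0.85. HPβCD animal 4 had the highest log2 ratio of *Tek* to endothelial markers in its group, at 0.54 against 0.23 to 0.24.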

How the results depend on the processing

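Of 150 values of members under 15 alternative fits, 5 changed sign. These were *Vegfa* under limma-voom (0.080) and in leave-one-out fits (-0.16 to 0.022), *Flt1* in leave-one-out fits (-0.019 to 0.33) and *Angpt1* without vehicle animals 1 and 3 (-0.057). The cause was not tested. Members called higher numbered 4 by DESeq2, 5 by limma-voom, 0 with library totals alone and 0 to 1 in leave-one-out fits, and none was called lower in any fit. All tested genes called numbered 287, against 2619 by DESeq2, 3253 by limma-voom, 11 with library totals alone and 0 to 629 in leave-one-out fits. The 4 leave-one-out fits with 0 calls (without vehicle animal 1 or 4, or HPβCD animal 2 or 3) had 2922 to 4216 genes at an unadjusted p under 0.05. With the animal number as a replicate block, 0 members and 9 genes were called. Deviations of same-numbered animals correlated between -0.26 and 0.33, and 3 of 8 animals matched their own number best, so the numbers were not taken as pairs. The log2 differences of ratios that crossed the exact p threshold in leave-one-out fits ranged from 0.97 to 1.31 (*Angpt2*/*Angpt1*), -0.93 to -0.59 (*Vegfa*/*Kdr*), -0.76 to -0.30 (*Flt1*/*Kdr*), 1.24 to 1.84 (*Vash2*/*Vash1*), -0.56 to -0.20 (*Flt1* to endothelial markers) and -0.19 to -0.080 (*Tek* to endothelial markers). *Nrp1*/*Kdr* turned to -0.021 without vehicle animals 1 and 3, where the smallest exact p is 0.0667. With coding length or the longest transcript, 4 and 6 members in vehicle and 4 and 5 in HPβCD infarcts took another rank.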

Other observations

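Partners of neuropilins, the class 3 semaphorins that bind them and the plexins that signal for them, gave 1 edgeR call among 12 tested genes. Of all tested genes edgeR called 1.95%. An unadjusted p under 0.05 was reached by 3, DESeq2 called 1 higher and 1 lower, and 2 had groups without overlap. Over all tested genes these shares were 27.8%, 17.8% and 16.8%. *Plxna1* rose from 81.8, 110.7, 107.8 and 119.8 CPM in vehicle to 200.7, 252.9, 241.8 and 221.5 CPM in HPβCD animals (log2 fold change 1.13, SE 0.15; edgeR adjusted p = 0.0389). It was called without vehicle animals 1 and 3 too (1.01). *Plxna2* and *Sema3d*, with *Plxna1* the 3 of highest expression, had log2 fold changes of 0.17 and 0.14 (edgeR adjusted p = 0.666 and 0.732). *Sema3c* was at 36.6, 29.7, 33.2 and 39.2 CPM in vehicle and at 26.8, 24.6, 19.97 and 26.9 CPM in HPβCD animals, without overlap. It was not called by edgeR (log2 fold change -0.50, SE 0.15, adjusted p = 0.0899) but was called lower by DESeq2 (adjusted p = 0.0388).

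Among 9 mural cell markers, all had log2 fold changes above 0, with a median of 0.44. *Pdgfrb*, the receptor that recruits pericytes to new vessels, was the one called, from 114.2 ± 23.1 to 258.6 ± 69.2 CPM (SD, n = 4 each; log2 fold change 1.18, SE 0.23; edgeR adjusted p = 0.0483), a call lost without vehicle animals 1 and 3 (0.97, edgeR adjusted p = 0.0851). *Rgs5* and *Acta2*, also pericyte and smooth muscle markers, had log2 fold changes of 0.34 and 0.67 (edgeR adjusted p = 0.375 and 0.154). The 6 fibroblast markers held 2 calls, *Col1a1* and *Col1a2*, both higher, and the 6 macrophage markers 1, *Gpnmb*, also higher, and the call of *Gpnmb* was lost without those animals (edgeR adjusted p = 0.0647). The median was -1.90 over 6 oligodendrocyte markers and -5.88 over 6 tested neuron markers, or -0.058 for neurons without vehicle animals 1 and 3. None of these was called by edgeR, with 0 and 6 at an unadjusted p and 1 and 5 at a DESeq2 adjusted p under 0.05. Of all tested genes 27.8% and 17.8% met these thresholds, and edgeR called 1.17% higher.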
